A study of Mus musculus with 26 samples.

Results

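The interferon regulatory factors (IRFs) are a family of transcription factors, and 8 of them were followed here through the differentiation of neural progenitors with and without TNF. Members were taken by gene symbol alone. The probe sets whose platform symbol was *Irf1*, *Irf2*, *Irf3*, *Irf4*, *Irf5*, *Irf7*, *Irf8* or *Irf9* numbered 9 of 35556 on the array, and these 8 genes stood among 19938 genes with a probe set of their own. *Irf1* had 2 probe sets and every other member had 1. In TNF-treated NSPs, *Irf1* was higher than in untreated NSPs at 6, 24, 48 and 72 h, first by 2.29-fold and, at the latest time, by 3.99-fold (its main probe set, 10376060). *Irf8* and *Irf5* were higher at 48 and 72 h, and *Irf9* increased over the differentiation of untreated NSPs with no TNF effect that passed the test. *Irf2*, *Irf3*, *Irf4* and *Irf7* did not pass the test for TNF at any time.

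Neurospheres (NSPs), which are floating clusters of neural stem and progenitor cells, were grown from the ventricular zone of C57BL/6J mouse embryos at embryonic day 14. The growth medium held epidermal growth factor. From 0 h, TNF-treated and untreated NSPs alike were differentiated on poly-L-ornithine in medium with 10% serum, which directs them towards astrocytes. Comparisons with 0 h therefore span this change of medium as well as time. TNF-treated NSPs received the cytokine at 50 ng/mL and were collected at 6, 24 and 48 h (3 arrays each) and once more at 72 h (2 arrays). Untreated NSPs were collected at 0, 6, 24, 48 and 72 h (3 arrays each), and the series calls its replicates biological. These are bulk samples, so that fewer cells of a type and less RNA per cell cannot be told apart. The deposited values were log2 signals on whole-transcript mouse gene arrays, ranging from 2.30 to 14.61 with array medians of 7.54 to 7.76, and correlations between arrays ran from 0.947 to 0.996. A difference of 1 on this scale is a factor of 2 in signal, signals of different probe sets are not comparable with each other, and the number of arrays limits the precision. *Gfap*, the intermediate filament of astrocytes, had log2 signals of 9.81, 8.996 and 8.20 in untreated NSPs at 0 h and 13.55, 13.34 and 13.73 at 72 h, and so followed the labelled differentiation.

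IRFs share a DNA-binding domain that reads the response elements of interferon genes and of genes that interferons induce. IRF1 is induced by interferon-gamma and by NF-κB and drives antigen presentation genes, while IRF2 competes for the same sites. IRF3, IRF5 and IRF7 are switched on by phosphorylation downstream of nucleic acid sensors and Toll-like receptors, IRF9 is the DNA-binding part of the complex that answers type I interferon, and IRF4 and IRF8 are best known from lymphocytes and myeloid cells.

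The sequences before the start sites of 3 members are shown because these were the only members whose promoter window held any of the 3 motifs searched, and they include the 2 members with the largest TNF effects. Windows of 300 bases (250 before and 50 after each start site, from RefSeq on GRCm38.p6) were matched by symbol for 8 of 8 members, 11 windows in all, of which 8 held no match. The motifs were the NF-κB consensus, the gamma-activated site (TTCNNNGAA) found in genes that interferon-gamma induces, and the core of the interferon-stimulated response element (GAAA, then any pair of bases, then GAAA). Both strands were read, and no matches of different motifs overlapped in these windows. Of 32851 promoter windows in the RefSeq set, 4.51% held the NF-κB consensus, 8.3% the gamma-activated site and 3.44% the response element core. The 250 bases before each start site are printed 5′ to 3′ on the plus strand, with matches in capitals. They lie at chr11:53769764-53770013 for *Irf1*, chr8:46739495-46739744 for *Irf2* and chr8:120736108-120736357 for *Irf8*.
Irf1: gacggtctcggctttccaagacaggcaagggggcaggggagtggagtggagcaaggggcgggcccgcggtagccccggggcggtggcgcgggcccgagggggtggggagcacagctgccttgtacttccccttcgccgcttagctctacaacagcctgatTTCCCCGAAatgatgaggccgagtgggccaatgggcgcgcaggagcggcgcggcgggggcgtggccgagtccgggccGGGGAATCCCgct
Irf2: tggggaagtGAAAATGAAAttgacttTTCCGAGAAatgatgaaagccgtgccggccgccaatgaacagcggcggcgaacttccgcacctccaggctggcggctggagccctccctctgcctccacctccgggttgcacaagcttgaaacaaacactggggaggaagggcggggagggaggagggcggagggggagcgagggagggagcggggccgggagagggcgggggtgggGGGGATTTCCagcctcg
Irf8: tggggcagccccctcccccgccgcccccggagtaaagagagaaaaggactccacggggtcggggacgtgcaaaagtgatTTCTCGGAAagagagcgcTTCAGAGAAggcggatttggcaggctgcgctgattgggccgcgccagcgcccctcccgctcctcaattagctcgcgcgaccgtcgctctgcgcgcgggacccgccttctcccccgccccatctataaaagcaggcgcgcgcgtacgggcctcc
In the *Irf1* window, the gamma-activated site lies 90 to 82 bases before the start site and the NF-κB match (GGGGAATCCC) 13 to 4 bases before it. The *Irf2* window holds the response element core at 241 to 232 bases, a gamma-activated site at 224 to 216 bases and an NF-κB match (GGGGATTTCC) at 17 to 8 bases before the start. The *Irf8* window holds a pair of gamma-activated sites, at 171 to 163 and 153 to 145 bases before the start. The windows of *Irf5* and *Irf9* held none of these letters, as did those of *Irf3*, *Irf4* and *Irf7*. A match is a description of sequence and does not show that a factor binds there.

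**Figure D1:**
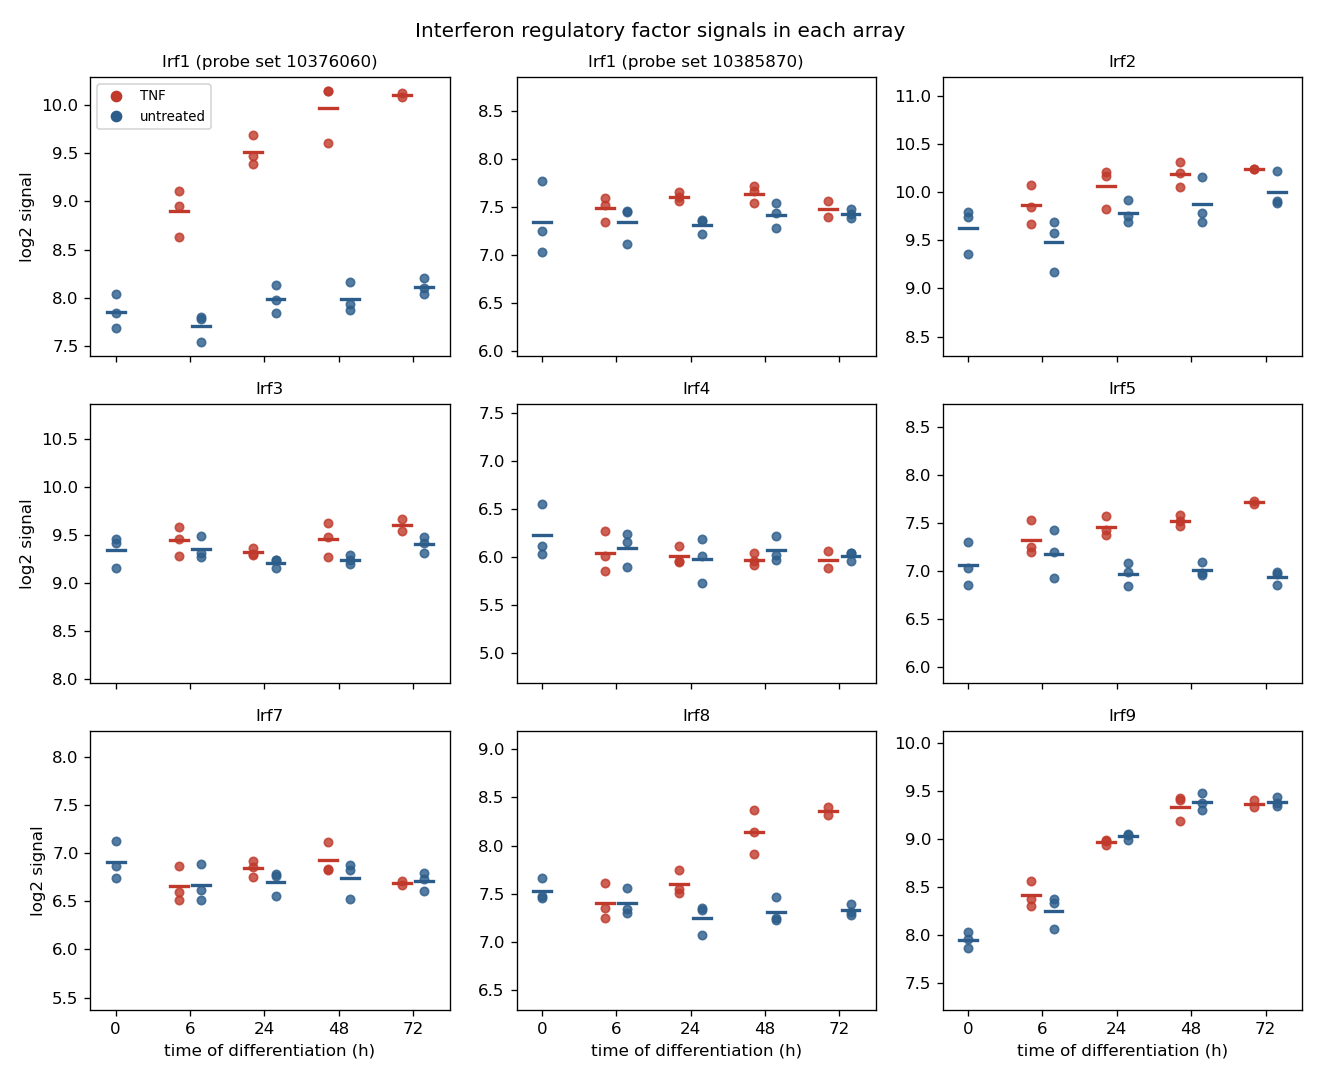
Log2 signal (vertical axis, the same span in each panel) of the 9 IRF probe sets in each array at 0, 6, 24, 48 and 72 h of differentiation (horizontal axis), with TNF-treated NSPs in red to the left of untreated NSPs in blue and a bar at each mean. The main *Irf1* probe set (10376060) reached 10.15 with TNF, against 8.20 at most in untreated NSPs. *Irf8* and *Irf5* separated at the later times, and the *Irf9* groups with and without TNF lay close together at each time.

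*Irf1* (chromosome 11, 53770014 to 53778374) encodes the activator of the family that is itself induced by inflammatory cytokines. At 6 h, its log2 signal was 8.95, 9.11 and 8.63 in TNF-treated NSPs, against 7.53, 7.80 and 7.78 in untreated NSPs (probe set 10376060). The lowest TNF array stood above the highest untreated one. The log2 fold change was 1.19 (SE 0.149, q = 0.000127). At 24 h, the signal was 9.39, 9.69 and 9.47 with TNF, against 7.84, 7.97 and 8.13 without, a log2 fold change of 1.54 (SE 0.149, q = 2.89e-06). The gap between groups was wider than the spread within either. At 48 h, TNF-treated NSPs had 9.61, 10.15 and 10.15 and untreated NSPs 7.87, 8.16 and 7.93, a log2 fold change of 1.98 (SE 0.149, q = 4.34e-08). At 72 h, the 2 TNF arrays had 10.13 and 10.08, against 8.10, 8.20 and 8.04 in untreated NSPs, a log2 fold change of 1.995 (SE 0.166, q = 3.43e-07). In fold terms, *Irf1* was 2.29, 2.90, 3.95 and 3.99 times its untreated level from the earliest to the latest time. It was among the 0.107 percent of all probe sets that passed as higher at all 4 times. Its effect at 48 h exceeded that at 6 h by 0.79 (95% interval 0.35 to 1.23), a difference that did not pass the test (q = 0.425). The interval for 72 h against 6 h was 0.34 to 1.27 (q = 0.497). In untreated NSPs, the level of *Irf1* at 72 h minus that at 0 h was 0.26 (95% interval −0.05 to 0.57, q = 0.129). Ordered by mean, the TNF groups at 72 and 48 h each overlapped the next lower group. The TNF group at 6 h lay below all TNF arrays of 24 h. All untreated groups lay below the TNF group at 6 h, and neighbours among them in this order overlapped. The untreated arrays of 6 h (7.80 at most) lay below all untreated arrays of 24 h (7.84 at least), 48 h and 72 h. Every *Irf1* call held without any 1 array (log2 1.09 to 1.33 at 6 h). With only the 6 arrays of 6 h in the fit, the 6 h call was lost (q = 0.223).

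The other *Irf1* probe set (10385870), which the platform ties to 1 accession against 8 for the main one, did not pass at any time. At 24 h, its TNF arrays (7.65, 7.56 and 7.60) lay above the untreated ones (7.36, 7.21 and 7.35). At 48 h, it had 7.71, 7.66 and 7.54 in TNF-treated NSPs, against 7.54, 7.27 and 7.43 in untreated NSPs, and these arrays overlapped. Its log2 fold changes were 0.14, 0.29, 0.22 and 0.05 from the earliest to the latest time, with q of 0.789 or more. The mean of both *Irf1* probe sets passed at each time, with values of 0.67, 0.91, 1.10 and 1.02 and a highest q of 0.00118. That mean contains the main probe set, so that its calls do not show that the other one changed. The size of the *Irf1* effect depended on the probe set.

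*Irf2* (chromosome 8, 46739745 to 46847458), whose product opposes IRF1 at shared sites, had 10.08, 9.67 and 9.85 in TNF-treated NSPs at 6 h, against 9.69, 9.17 and 9.57 in untreated NSPs. The arrays overlapped, and the log2 fold change of 0.39 (SE 0.161, 95% interval 0.05 to 0.72) did not pass over all probe sets (q = 0.828). At 24, 48 and 72 h, it was 0.28, 0.31 and 0.23, and the highest bound of these 3 intervals was 0.65. At 72 h, the TNF arrays (10.24 and 10.24) were just above the untreated ones (9.91, 10.22 and 9.88). In untreated NSPs, *Irf2* at 72 h differed from 0 h by 0.38 (95% interval 0.04 to 0.71, q = 0.0587). All neighbouring conditions of *Irf2* overlapped when ordered by mean.

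*Irf8* (chromosome 8, 120736358 to 120756694) encodes a factor of myeloid cells, microglia among them, and did not differ detectably at 6 h. At 6 h, it had 7.35, 7.61 and 7.25 in TNF-treated NSPs, against 7.56, 7.30 and 7.34 in untreated NSPs, a log2 fold change of 0.00 with a 95% interval of −0.25 to 0.26. At 24 h, the TNF arrays (7.75, 7.50 and 7.54) lay above the untreated ones (7.33, 7.07 and 7.35). This difference was 0.35 (SE 0.124) and fell short of the threshold (q = 0.417). At 48 h, the signal was 8.15, 7.91 and 8.37 in TNF-treated NSPs, against 7.47, 7.23 and 7.24 in untreated NSPs, and *Irf8* rose by 0.83 (SE 0.124, q = 0.000511, 1.78-fold). By 72 h, the TNF arrays had 8.40 and 8.32, against 7.39, 7.28 and 7.31 in untreated NSPs, a rise of 1.03 (SE 0.138, q = 0.000194, 2.05-fold). No TNF array overlapped an untreated one at these times. *Irf8* was the one member whose TNF effect differed between times by the test. *Irf1* (95% interval 0.34 to 1.27) and *Irf5* (0.24 to 1.01) also had larger effects at 72 h than at 6 h, without passing. The *Irf8* effect at 72 h exceeded that at 6 h by 1.03 (SE 0.186, 95% interval 0.64 to 1.41, q = 0.0266), beside 0.09 percent of all probe sets that were higher and 0.0337 percent that were lower. For 48 h against 6 h, the *Irf8* difference was 0.83 (q = 0.0946). It passed with the replicate block (q = 0.0299), although same-numbered arrays were not taken as pairs at 48 h. Without the block, no member passed in that comparison (0.0844 percent of all probe sets were higher and 0.0197 percent lower) or for 24 h against 6 h (0.0253 percent higher). Both TNF effects held without any 1 array (log2 0.72 to 0.95 at 48 h and 0.99 to 1.08 at 72 h), but with only the 6 arrays of 48 h the call there was lost (q = 0.0622). The difference between 72 and 6 h lost its call without any 1 of 9 of its 11 arrays (q = 0.0562 to 0.233), the exceptions being replicate 2 of either group at 6 h, and with only those 11 arrays in the fit (q = 0.104).

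*Irf5* (chromosome 6, 29526130 to 29541869) encodes a factor that acts after Toll-like receptors and favours inflammatory cytokines. At 24 h, it had 7.43, 7.57 and 7.37 in TNF-treated NSPs, against 7.09, 6.99 and 6.84 in untreated NSPs. The groups did not overlap, yet the log2 fold change of 0.48 (SE 0.123, 95% interval 0.23 to 0.74, q = 0.0757) missed the threshold. It passed after cyclic loess between arrays (0.46, q = 0.0203) and with a replicate block (q = 0.017), although same-numbered arrays were not taken as pairs at 24 h. At 48 h, the signal was 7.47, 7.52 and 7.58 in TNF-treated NSPs, against 7.10, 6.98 and 6.96 in untreated NSPs, and *Irf5* rose by 0.51 (SE 0.123, q = 0.0424, 1.43-fold). By 72 h, the TNF arrays had 7.73 and 7.70, against 6.99, 6.97 and 6.86 in untreated NSPs, a rise of 0.77 (SE 0.138, q = 0.00483, 1.71-fold). The 72 h TNF arrays were the highest of all 26. At 6 h, the groups overlapped (7.53, 7.20 and 7.25 with TNF, against 7.42, 6.93 and 7.19), with a difference of 0.15 (95% interval −0.11 to 0.40). The *Irf5* effect at 72 h exceeded that at 6 h by 0.63 (95% interval 0.24 to 1.01), which did not pass the test (q = 0.635). The 48 h call was lost without any 1 of its 6 arrays (q = 0.0552 to 0.194) and with only those arrays in the fit (q = 0.09). The 72 h call was lost without replicate 1 (log2 0.76, q = 0.114) or replicate 2 (0.79, q = 0.0854) of the TNF group.

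**Figure D2:**
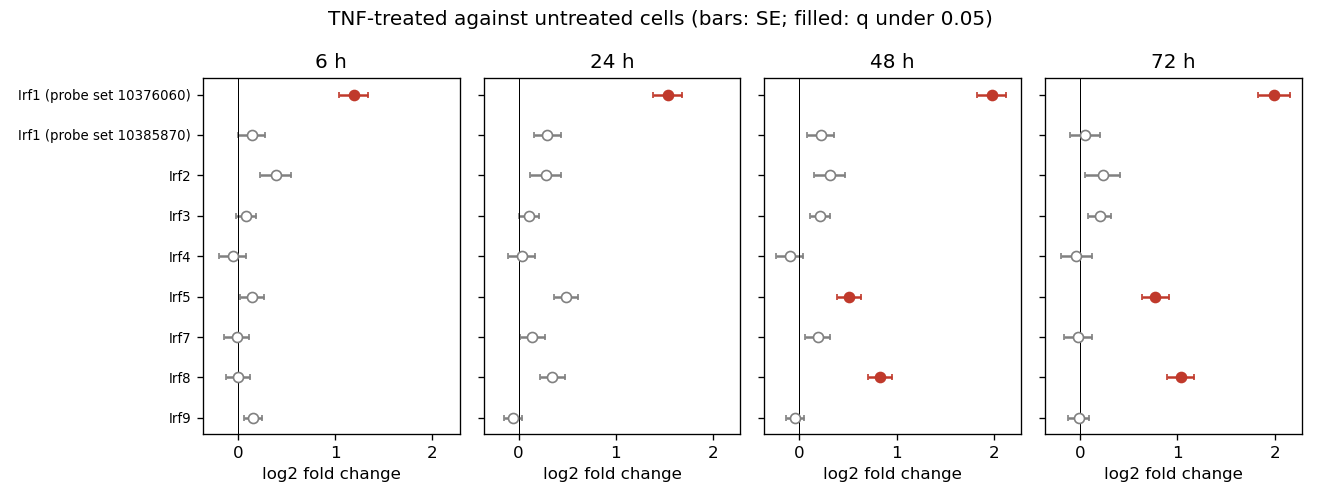
Log2 fold change of TNF-treated against untreated NSPs (horizontal axis) for the 9 IRF probe sets (rows) at 6, 24, 48 and 72 h (panels), with SE bars and filled points where q was under 0.05. The main *Irf1* probe set is filled in every panel, at 1.19 to 1.995, and *Irf8* and *Irf5* are filled at 48 and 72 h.

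*Irf9* (chromosome 14, 55603985 to 55610030), which encodes the DNA-binding part of the type I interferon response complex, changed over time in untreated NSPs. In untreated NSPs, its log2 signal was 7.87, 8.03 and 7.96 at 0 h. After 6 h it was 8.37, 8.06 and 8.33, and after 24 h 9.04, 8.99 and 9.05. The signal reached 9.30, 9.38 and 9.47 by 48 h, and the 72 h arrays had 9.43, 9.37 and 9.35. Each group was above the one before it without overlap, up to 48 h. Against 0 h, *Irf9* rose by 0.30 within 6 h (SE 0.0932, q = 0.0424) and by 1.07 within 24 h (q = 8.15e-08). The log2 difference was 1.43 for both 48 h (q = 1.43e-09) and 72 h (q = 6.68e-10), or 2.70-fold. These 4 comparisons share the 0 h arrays. Of all probe sets, 4.64, 10, 8.99 and 12.6 percent were higher in these comparisons, and *Irf9* was the only member among them. No member was lower, against 3.03, 6.51, 6.97 and 10.2 percent of all probe sets in limma's test (0, 1, 0 and 0 IRF probe sets at an unadjusted p under 0.05). The 1 at 24 h was *Irf8*, at −0.28, which passed as lower with a replicate block (q = 0.0352) and without the dimmest 40 percent of probe sets (q = 0.049). The 6 h call was lost without replicate 1 or 3 of either untreated group (q = 0.0638 to 0.208), and the later ones held without any 1 array.

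TNF did not shift *Irf9* detectably. At 72 h, its signal was 9.33 and 9.41 in TNF-treated NSPs, against 9.43, 9.37 and 9.35 in untreated NSPs, a difference of −0.02 (95% interval −0.23 to 0.20). At 24 h, the TNF arrays (8.98, 8.98 and 8.94) lay just below the untreated ones (9.04, 8.99 and 9.05), with a difference of −0.06 (95% interval −0.25 to 0.13). The 6 h difference was 0.16 (95% interval −0.04 to 0.35), so that a change as large as that of *Irf1* lies outside the *Irf9* interval at each of these times. *Stat2*, which encodes another protein of that complex, had TNF effects of −0.19, 0.06, 0.04 and 0.05 and differed from 0 h by 0.04 at 72 h in untreated NSPs (q = 0.4).

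*Irf3* (chromosome 7, 44997648 to 45002848) and *Irf7* (chromosome 7, 141263183 to 141266499) encode the factors that start type I interferon transcription. *Irf3* is present in most cells before any signal, and at 48 h it had 9.27, 9.48 and 9.63 in TNF-treated NSPs, against 9.20, 9.24 and 9.30 in untreated NSPs. These arrays overlapped, and the log2 fold change was 0.21 (SE 0.103, 95% interval 0.00 to 0.43, q = 0.687). At 72 h, its TNF arrays (9.54 and 9.67) lay above the untreated ones (9.31, 9.42 and 9.48), with 0.20 (q = 0.654). *Irf7*, which interferon itself induces in many cells, had 6.83, 6.84 and 7.12 with TNF at 48 h, against 6.82, 6.52 and 6.87 without. Its log2 fold changes were −0.01, 0.14, 0.19 and −0.02 from the earliest to the latest time, and the highest bound of the 4 intervals was 0.46. *Irf7* and *Irf4* were among the 40 percent of probe sets with the lowest mean signal.

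*Irf4* (chromosome 13, 30749233 to 30766981), a factor of lymphocytes and dendritic cells, had 6.04, 5.95 and 5.91 in TNF-treated NSPs at 48 h, against 6.22, 5.97 and 6.03 in untreated NSPs. Its log2 fold changes were −0.05, 0.03, −0.10 and −0.04, and every pair of neighbouring conditions overlapped. Over the 9 condition means, its range was 0.26, the same as that of *Irf7*, against 2.40 for the main *Irf1* probe set, 1.43 for *Irf9*, 1.11 for *Irf8*, 0.77 for *Irf5*, 0.76 for *Irf2* and 0.39 for *Irf3*.

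In counts, 1, 1, 3 and 3 of the 8 members were higher with TNF from the earliest to the latest time, beside 0.312, 0.627, 0.773 and 0.596 percent of all probe sets. None was lower, against 0.0141, 0.236, 0.264 and 0.554 percent of all probe sets in limma's test. With p unadjusted (under 0.05), 2, 4, 3 and 3 of the 9 IRF probe sets were higher and 0 were lower at each time. Of all 35556 probe sets, 1768, 1999, 2316 and 3402 had such a p in either direction in limma's test, from the earliest to the latest time. The unadjusted counts of the gene lists below stand beside the same totals. Without regard to the test, all TNF arrays lay above all untreated arrays for 1, 5, 3 and 5 of the 9 IRF probe sets from the earliest to the latest time. The same held for 4.31, 6.85, 6.41 and 19 percent of all probe sets, with only 2 TNF arrays at 72 h. *Irf9* at 24 h was the only one with all TNF arrays below, beside 4.24, 7.31, 5.76 and 22 percent of all probe sets over the same times.

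By Pearson's r over the 9 condition means, the genes most like *Irf1* (main probe set) were *Ifngr2* (0.994), *Cd14* (0.990), *Tnip1* (0.985), *Igfbp7* (0.983) and *Nfkb2* (0.982). Those most like *Irf8* were *Samd14* (0.985), *C1ra* (0.983), *H2-M2* (0.982), *Ephb4* (0.979) and *Slc43a3* (0.975). For *Irf5*, they were *Chst15* (0.981), *Snx11* (0.976), *Nupr1* (0.976), *Ttll12* (0.971) and *Gm11559* (0.967). The points share arrays and normalization, and the values are descriptions over 9 conditions.

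Around the family, the interferons themselves did not pass the test. The 7 measured ligand genes, *Ifnb1* and *Ifng* among them, had 0 calls in limma's test at any time (at an unadjusted p under 0.05, 1 was lower at 6 h and 0 otherwise) and medians of −0.19, −0.01, −0.14 and −0.10 (over all genes −0.03, 0.02, −0.04 and −0.01). *Ifng* had −0.12, 0.06, −0.03 and −0.06, and *Ifnb1* −0.19, −0.01, −0.16 and −0.10. All ligand genes but *Il28a* lay below the array median in every array. Their lack of calls therefore does not show that interferon transcripts stayed unchanged. Among 9 receptor, JAK and STAT genes, *Ifngr2*, the signalling chain of the interferon-gamma receptor, was the only one called at each time. At 24 h, *Ifngr2* had 12.18, 12.29 and 12.34 in TNF-treated NSPs, against 11.03, 11.24 and 11.14 in untreated NSPs, with no overlap. From the earliest to the latest time it rose by 0.72, 1.14, 1.19 and 1.33, with an SE of 0.106 and q = 0.000976 for the first of these. *Ifngr1*, the ligand-binding chain, passed only at 48 h, with 0.72 (q = 0.0217) against 0.68 (q = 0.0651) at 72 h. Its 48 h call was kept in 2 of 6 fits without 1 array, and every *Ifngr2* call held.

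Upstream of IRF3, IRF5 and IRF7, 0, 1, 2 and 0 of 16 sensors and adaptors were called from the earliest to the latest time, all of them higher. A replicate block gave 1, 4, 4 and 1, and an unadjusted p under 0.05 gave 1, 4, 5 and 1 higher and 0 lower. *Ddx58*, which encodes the RNA sensor RIG-I, rose by 0.86 (24 h, q = 0.0426) and 1.08 (48 h, q = 0.0056), and *Ifih1*, which encodes the RNA sensor MDA5, by 1.02 at 48 h (q = 0.0088). Without 1 array, the *Ddx58* calls were kept in 1 of 6 fits (24 h) and 4 of 6 (48 h), and that of *Ifih1* in 4 of 6. The adaptor *Myd88* had 0.81 at 6 h (q = 0.298), which passed once the replicate number entered the fit (q = 0.0149). The calls that the block added at 24 and 48 h included *Tlr4*, the receptor for lipopolysaccharide, at 0.90 (q = 0.327, with the block 0.00424) and 1.02 (q = 0.156, with the block 0.00106). The kinases that phosphorylate IRF3, *Tbk1* and *Ikbke*, had values between −0.14 and 0.33 without a call. Of 11 regulators and partners of IRF proteins, *Trim21*, a ubiquitin ligase that acts on several IRFs, rose by 0.50 (48 h, q = 0.0148) and 0.48 (72 h, q = 0.0486), calls kept in 2 of 6 and 0 of 5 fits without 1 array. *Spi1*, which encodes the partner of IRF4 and IRF8 known as PU.1, had −0.10, 0.10, −0.08 and −0.02. Its signal lay below the array median in every array, so that these values do not show an unchanged transcript.

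Among genes listed as downstream, targets of IRF1 and interferon-gamma are described first and the classical interferon-stimulated genes after them. Whether IRF1, NF-κB or another factor raised any of these genes here was not tested. Of 20 measured targets, 3, 10, 13 and 11 rose as time went on and 0 fell in limma's test, with medians of 0.22, 0.69, 0.95 and 0.98. At an unadjusted p under 0.05, 8, 16, 15 and 16 were higher and 0 lower. Without 1 array, the numbers that rose were 2 to 3, 7 to 10, 11 to 12 and 6 to 10, the 72 h count being 6 without replicate 1 of the TNF group and 7 without its replicate 2 or replicate 3 of the untreated group. With the replicate number as a block, 5 rose at 6 h, with *Gbp5* (0.67, q = 0.0421) and *Tap1* (0.44, q = 0.044) added to *Cxcl10*, *Casp4* and *Vcam1*. *Cxcl10*, a chemokine that attracts T cells, rose by 3.57, 4.80, 4.19 and 2.88 from the earliest to the latest time, and *Vcam1*, an adhesion molecule for leukocytes, by 1.33, 2.29, 2.59 and 2.21. At 24 h, *Cxcl10* had 11.79, 11.65 and 12.23 in TNF-treated NSPs, against 7.21, 6.91 and 7.14 in untreated NSPs. At 72 h, it had 12.67 and 12.785, against 9.44, 10.26 and 9.85. Its untreated signal was thus higher at 72 h than at 24 h, and its TNF signal was not lower. *Casp4*, which encodes the inflammatory caspase-11 of mice, had 10.27, 10.93 and 10.58 in TNF-treated NSPs at 24 h, against 6.29, 6.82 and 6.58 in untreated NSPs. The *Casp4* effects over the 4 times were 2.30 (q = 5.85e-05), 4.03 (SE 0.268, q = 1.12e-08), 3.69 and 3.12, and all of them passed. At 72 h, *Casp4* had 10.85 and 10.64 in TNF-treated NSPs, against 7.61, 7.65 and 7.62 in untreated NSPs. *Tap1*, a subunit of the peptide transporter of antigen presentation, had 8.80, 9.23 and 9.24 with TNF at 48 h, against 7.85, 7.96 and 7.70 without. Over the 3 later times *Tap1* rose by 0.86, 1.26 and 1.23, and its partner *Tap2* by 1.25, 1.20 and 1.29. *Psmb9*, an immunoproteasome subunit with IRF1 as a known activator, rose by 0.47, 0.54 and 0.56 at these times (calls kept in 2 of 6, 6 of 6 and 2 of 5 fits without 1 array), and its 6 h value was −0.12 (q = 0.894). *Gbp5*, a guanylate-binding protein, rose by 1.64 at 24 h (q = 1.79e-05). *Cxcl9*, *Nos2*, *Il15* and *Irgm1* did not pass at any time. The first 3 of these lay below the array median in every array, so that their lack of calls does not show unchanged transcripts.

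Of 22 classical interferon-stimulated genes, 0, 3, 6 and 5 rose as time went on and 0 fell in limma's test, with medians of −0.09, 0.17, 0.08 and 0.12. At an unadjusted p under 0.05, 1, 8, 8 and 7 were higher and 2, 1, 0 and 1 lower. At 24 h, 0 rose without replicate 3 of the untreated group, 1 without replicate 1 of either group or replicate 2 of the TNF group, and 2 or 3 without either other array. At 72 h, 2 or 3 rose without any 1 of the 5 arrays, and at 48 h 5 to 7. *Oasl2*, an oligoadenylate synthetase-like protein, had 8.64 and 8.41 in TNF-treated NSPs at 72 h, against 7.14, 7.21 and 7.01 in untreated NSPs. Its 6 h value was −0.21 (q = 0.894), and over the later times *Oasl2* rose by 0.62, 0.96 and 1.40 (SE 0.131, q = 1.74e-06 for the last). *Usp18*, a brake on type I interferon signalling, rose by 0.86 (48 h, q = 0.00376) and 1.15 (72 h, q = 0.000685). *Parp14*, an ADP-ribosyltransferase, rose by 0.84 (24 h, q = 0.00988, a call kept in 3 of 6 fits without 1 array) and 1.06 (48 h, q = 0.00074), and *Rtp4* by 0.996 (48 h, q = 0.000121) and 0.66 (72 h, q = 0.0296, kept in 1 of 5 such fits). *Ifit1*, *Ifit2*, *Rsad2* and *Mx1*, which are standard readouts of type I interferon, had values between −0.49 and 0.21 without a call. Of these, *Ifit1*, *Rsad2* and *Mx1* lay below the array median in every array, so that their lack of calls does not show unchanged transcripts. *Ifit2* had 8.50, 8.50 and 8.49 in TNF-treated NSPs at 24 h, against 8.83, 8.98 and 8.80 in untreated NSPs. At 72 h, it had 8.90 and 8.87, against 9.28, 9.51 and 9.35. All its TNF arrays thus lay below at these times, as for 7.31 and 22 percent of all probe sets, and its arrays overlapped at 6 and 48 h. *Ifit3* had no call either. Its TNF arrays at 24 h (8.21, 7.98 and 8.31) lay below the untreated ones (8.88, 8.96 and 8.77). Its 72 h arrays went the other way, with 9.34 and 9.32 in TNF-treated NSPs, against 9.20 at most in untreated NSPs. The difference between these lists was not tested. Of 8 NF-κB feedback genes, 4, 5, 5 and 5 rose. *Nfkbia*, which encodes the inhibitor IκBα, rose by 2.11, 2.38, 2.67 and 2.62 from the earliest to the latest time. *Tnfaip3*, which encodes the deubiquitinase A20, rose by 1.88, 2.23, 2.51 and 2.54. *Relb*, an NF-κB subunit, rose by 1.14, 1.36, 1.37 and 1.69. *Nfkbie*, a further inhibitor of NF-κB, had 0.36 at 6 h (q = 0.65) and rose by 1.36, 2.25 and 2.58 over the later times.

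**Figure D3:**
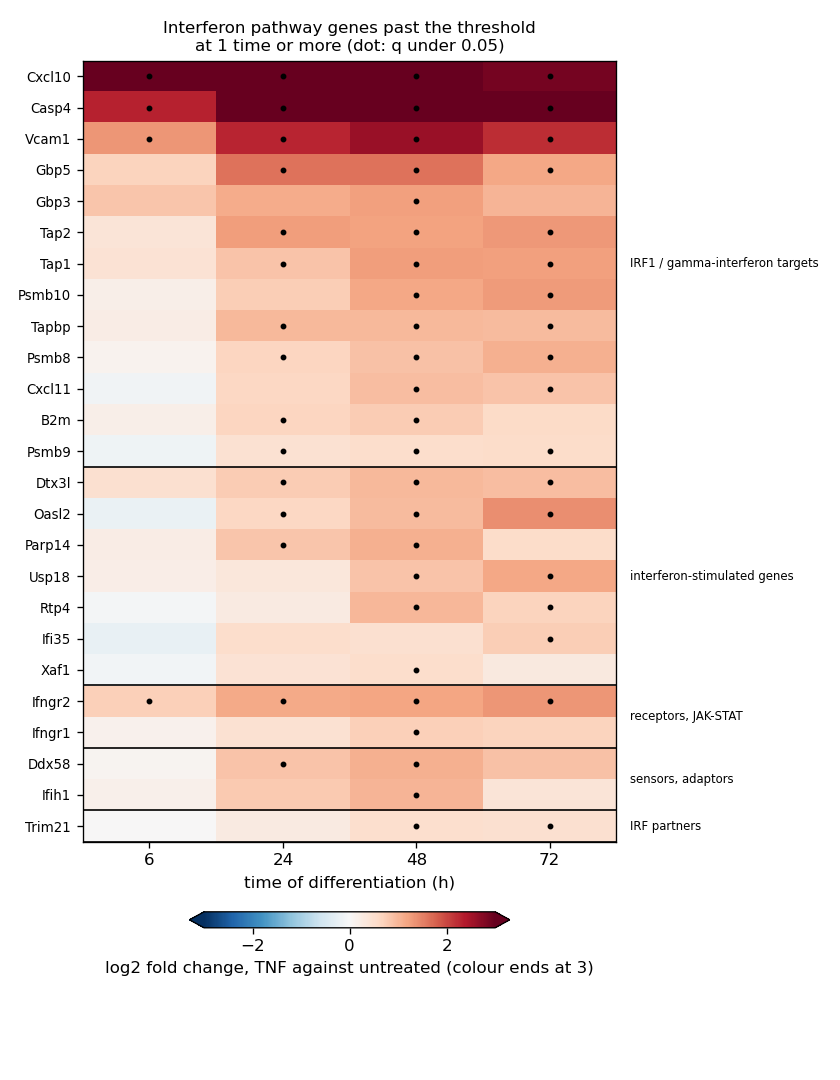
Log2 fold change of TNF-treated against untreated NSPs (colour, red higher, ends of the scale at 3) for the 25 interferon pathway genes that passed the test at 1 time or more, at 6, 24, 48 and 72 h (columns), with a dot where q was under 0.05. Targets of IRF1 and interferon-gamma carry 3, 10, 13 and 11 dots from the earliest to the latest time and interferon-stimulated genes 0, 3, 6 and 5.

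Because *Irf8* and *Irf5* are genes of myeloid cells, the markers of microglia and macrophages were set beside them. Of 15 such markers, 0 passed at 6, 48 and 72 h in limma's test in either direction, with medians of −0.13, −0.12 and −0.13, and 1 passed at 24 h. That 1 was *Cd68*, a lysosomal protein of phagocytes, which had 10.15, 11.89 and 11.08 in TNF-treated NSPs at 24 h, against 8.05, 10.16 and 8.53 in untreated NSPs, a rise of 2.13 (SE 0.411, q = 0.00949). The arrays of *Cd68* overlapped, and its call was lost without replicate 1 or 3 of the untreated group or replicate 2 of the TNF group (highest q = 0.103). At an unadjusted p under 0.05, 0, 1, 1 and 0 markers were higher and 2, 0, 2 and 0 lower. Its effect was 0.87 (48 h, q = 0.672) and 0.38 (72 h, q = 0.928) at the times when *Irf8* and *Irf5* passed. The mean log2 signal over the 15 markers was 6.68 to 6.77 in TNF-treated NSPs at 48 h, against 6.67 to 6.96 in untreated NSPs. By 72 h, it was 6.62 to 6.67 with TNF, against 6.70 to 6.74 without. At 24 h, it was 6.84 to 7.05 with TNF, against 6.75 to 6.76 without. The markers *P2ry12*, *Itgam*, *Ptprc* and *Aif1* lay at the 16.4th, 15.6th, 16.4th and 25.3rd percentile of mean signal among all probe sets. Others of the list were higher in signal. *Cx3cr1* ranged from 7.48 to 8.20 over all arrays, close to the array medians of 7.54 to 7.76, and *Cd68* had the 24 h values given above. The array has no true zero, so that the absence of such cells was not measured. Of 4 lymphocyte and dendritic cell markers and 5 endothelial markers, 0 passed for TNF at any time in limma's test, and 0 had an unadjusted p under 0.05.

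**Figure D4:**
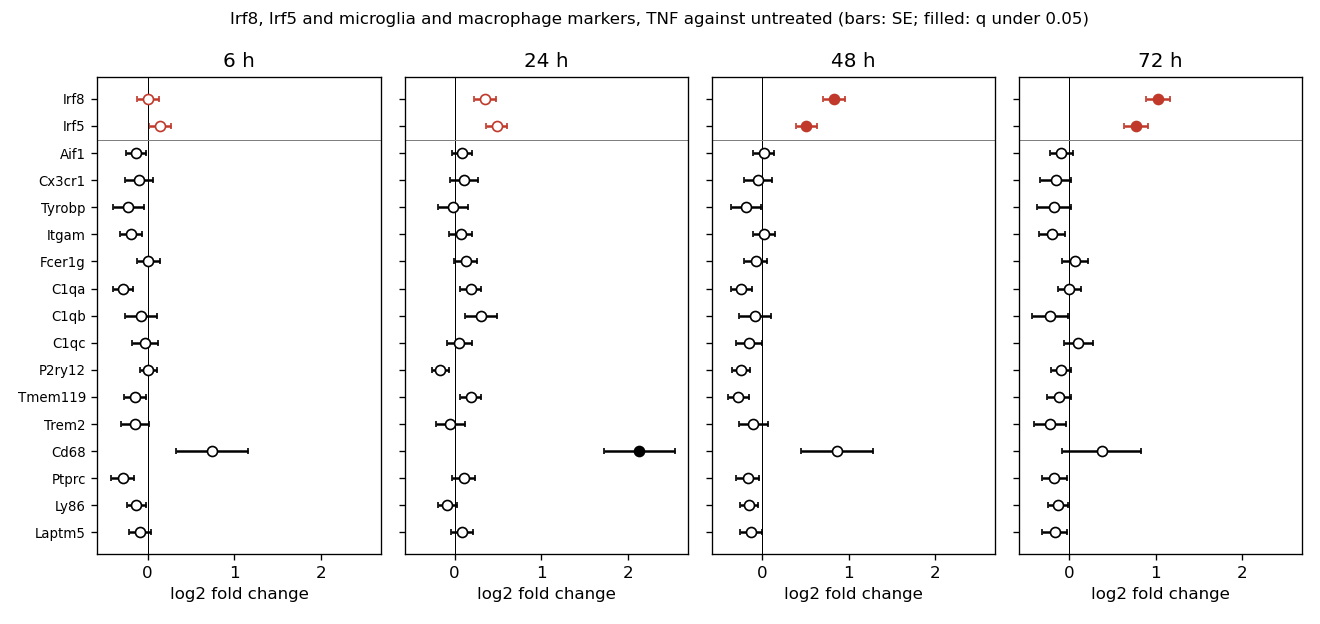
Log2 fold change of TNF-treated against untreated NSPs (horizontal axis) for *Irf8* and *Irf5* (red) and 15 microglia and macrophage markers (black) at 6, 24, 48 and 72 h, with SE bars and filled points where q was under 0.05. *Irf8* and *Irf5* are filled at 48 and 72 h, while *Cd68* at 24 h is the only filled marker.

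Among 9 astrocyte markers, *Slc4a4*, a sodium bicarbonate cotransporter, and *Gja1*, which encodes connexin 43, were lower with TNF at 24 h (−1.28 and −1.10), and *Slc4a4* alone at 48 and 72 h. The list medians were −0.17, −0.56, −0.55 and −0.53 from the earliest to the latest time, beside −0.03, 0.02, −0.04 and −0.01 over all genes. With p unadjusted (under 0.05), 2, 4, 6 and 6 markers were lower and 0 higher, and with a replicate block 0, 3, 4 and 3 passed as lower. *Gfap* had 12.54 and 12.78 in TNF-treated NSPs at 72 h, against 13.55, 13.34 and 13.73 in untreated NSPs, without overlap. Its log2 difference was −0.93 at 48 h (q = 0.117) and −0.88 at 72 h (q = 0.195). Without 1 array, the *Gja1* call was kept in 1 of 6 fits and those of *Slc4a4* in 6 of 6, 3 of 6 and 1 of 5 over the 3 times. Of 6 neural progenitor, 4 neuron and 4 oligodendrocyte lineage markers, 0 passed for TNF in limma's test. With p unadjusted (under 0.05), 1 progenitor marker was lower at each time and 1 neuron marker at 48 and 72 h. The part of these shifts, or of *Cd68*, in the IRF values was not tested.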

How the data were processed

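Values were taken as deposited: log2 signals of 26 Affymetrix arrays, to which the authors had applied RMA (background correction, a common distribution, probe set summary) in R 3.3.1 with oligo, whose version is not stated in the sources used. Gene symbols came from the platform annotation (21789 probe sets with 1 symbol, 1621 with several and 12146 with none), and all 9 IRF probe sets were matched to GRCm38.p6 RefSeq genes.

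limma 3.58.1 in R 4.3.3 fitted 9 group means over all 26 arrays. TNF-treated NSPs were compared with untreated NSPs at each time, later untreated NSPs with those at 0 h, and the later TNF effects with the 6 h one. A probe set passed with a q-value under 0.05 over all 35556 probe sets, from an own version of the qvalue smoother that was tested on simulated data. It put the share of unchanged probe sets at 0.936, 1, 0.889 and 0.988 for the 4 TNF effects.

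The members and the 14 gene lists (140 of 154 genes measured, the others not analysed here, 1 probe set per gene with the highest mean) were chosen with earlier results of these data known. Every member was named, from each list any gene and at least the up to 4 with the largest called effects, and the 5 genes most like each called member. Same-numbered TNF and untreated arrays correlated at 6 h (0.674, 0.559 and 0.461 after removing group means) and were taken as pairs there only. The main fit did not use these pairs at 6 h either. With the replicate block in limma, the 6 h TNF effect had q = 1.89e-05 for *Irf1* (main probe set) and q = 0.384 for *Irf2*. The replicate block spans all arrays, so that its values at later times rest on a pairing that was not accepted there. Alternatives were the replicate block, cyclic loess, Benjamini-Hochberg, a robust prior with an intensity trend, a fit of the compared arrays alone, no dim probe sets (lowest 40 percent), the mean of both *Irf1* probe sets and the loss of any 1 array.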

Additional observations from a re-analysis of the deposited data

Results flagged for a closer look

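The TNF effect on *Irf8* differed between 2 times. In limma's test of the difference itself, its 72 h value exceeded its 6 h value by 1.03 on the log2 scale (SE 0.186, q = 0.0266), with 8.40 and 8.32 in TNF-treated NSPs at 72 h, against 7.39, 7.28 and 7.31 in untreated NSPs, and overlapping arrays at 6 h. Without any 1 array, the difference ran from 0.95 to 1.13, and it kept its call in 2 of 11 such fits.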

How the results depend on the processing

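With each array left out in turn, the number of members called higher for TNF was 1 to 1 at 6 h, 1 to 1 at 24 h, 2 to 2 at 48 h (*Irf5* lost in all 6 fits) and 2 to 3 at 72 h. For untreated NSPs against 0 h, the counts were 0 to 1 at 6 h, 1 to 1 at 24 h, 1 to 1 at 48 h and 1 to 2 at 72 h. For TNF effects against that at 6 h, they were 0 to 0 at 24 h, 0 to 1 at 48 h and 0 to 1 at 72 h. In fits of only the arrays compared, which have fewer residual degrees of freedom, 0 members passed for TNF at 6 h, 1 at 48 h (*Irf1*), 0 for untreated NSPs at 6 h and 0 for the difference between 72 and 6 h. The untreated 6 h count was also 0 with Benjamini-Hochberg, cyclic loess and the intensity trend with a robust prior (*Irf9*, q = 0.053 to 0.0568). Cyclic loess gave 2 members for TNF at 24 h (*Irf5*, q = 0.0203). Without the dimmest 40 percent of probe sets, where *Irf4* and *Irf7* drop out, 2 passed for untreated NSPs at 24 h (*Irf8*, q = 0.049) and 2 at 72 h (*Irf2*, q = 0.0337). The replicate block gave 2 for TNF at 24 h (*Irf5*, q = 0.017), 2 for untreated NSPs at 24 h (*Irf8*, −0.28), 2 at 72 h (*Irf2*) and 1 for the difference between 48 and 6 h (*Irf8*, q = 0.0299). It changed no other member's call. For TNF, the block moved counts of higher genes by over 1.5 times for sensors and adaptors (values with that list) and IRF regulators at 72 h (3, against 1). It did so too for interferon-stimulated genes at 24 h (5, against 3), receptors at 24 h (2, against 1) and 72 h (2, against 1), and targets of IRF1 at 6 h (5, against 3). Counts of lower genes moved for astrocyte markers at 48 h (4, against 1) and 72 h (3, against 1) and neuron markers at 72 h (1, against 0). List counts also moved in the other comparisons. In untreated NSPs against 0 h, examples were targets of IRF1 at 24 h (5 higher, against 2) and astrocyte markers at 6 h (5 lower, against 2). Apart from the construction of these fits, the cause was not tested. Beyond 6 h the same-numbered arrays were not taken as pairs, since their correlations reached down to 0.0263 (24 h), −0.0238 (48 h) and −0.0156 (72 h). The 72 h TNF array numbered 2 carries that number by its title alone and stands where replicate 3 would in the order of the series, so that its pairing and its block values rest on that title. No called value changed direction under any of these alternatives.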
